A study of Mus musculus with 24 samples.

Results

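The 8 genes described here encode the enzymes that cross-link collagen and elastin and those that prepare collagen for it: lysyl oxidase (Lox), its relatives Loxl1, Loxl2, Loxl3 and Loxl4, and the lysyl hydroxylases Plod1, Plod2 and Plod3. They were taken by gene symbol from the 78298 genes of the deposited tables, and each symbol matched a single row. Their Ensembl identifiers in the tables are ENSMUSG00000024529 (Lox), ENSMUSG00000032334 (Loxl1), ENSMUSG00000034205 (Loxl2), ENSMUSG00000000693 (Loxl3), ENSMUSG00000025185 (Loxl4), ENSMUSG00000019055 (Plod1), ENSMUSG00000032374 (Plod2) and ENSMUSG00000004846 (Plod3). RNA sequencing gave their messenger RNA levels in oocytes and in granulosa cells, the layers of somatic cells around the egg, of wild-type mouse ovarian follicles. The follicles had spent 3 days in alginate gel, in medium containing the growth-driving hormone FSH (50 mIU/ml). They were controls, or received blebbistatin at 20 µM, an inhibitor of the motor protein myosin II, or dextran at 10 kPa, a large sugar polymer that raises the osmotic pressure of the medium. Each of the 6 combinations of cell type and treatment had 4 libraries, which makes 24 libraries. Follicles larger than 180 µm were taken apart by hand. Libraries of granulosa cells pooled many cells, and oocyte libraries 1 to 2 oocytes. The age of the mice, and whether a solvent for blebbistatin was added to control medium, were not stated in the labels. The labels speak of biological replicates without saying whether these came from separate animals or cultures, so p-values measure the spread between these libraries.

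Lysyl oxidases are copper enzymes that act outside the cell. They oxidise lysine and hydroxylysine side chains of collagen and elastin to reactive aldehydes, which then condense into covalent cross-links between neighbouring molecules. Lysyl hydroxylases act earlier, in the endoplasmic reticulum, where they hydroxylate lysines of newly made procollagen. The hydroxylation state of those lysines sets which chemical kind of cross-link forms later. In the ovary the follicle is enclosed by a basement membrane rich in type IV collagen and by a stroma with fibrillar collagens, and lysyl oxidase is known to be made by granulosa cells and to be under hormonal control.

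Total estimated counts per library ranged from 16432300 to 22431000 in granulosa cells and from 14244100 to 18399600 in oocytes. The labels of cell type were matched by marker genes. Summed over 13 oocyte markers, levels were at least 14312.6 CPM (counts per 1000000 of the scaled library total of its cell type) in every oocyte library and at most 38.0 CPM in every granulosa cell library. Summed over 14 granulosa markers, levels were at least 17510 CPM in every granulosa cell library. Some libraries stood apart. Blebbistatin replicates 1 and 2 of the granulosa cells had summed levels of 8 immune markers of 563 and 859 CPM, against at most 14.9 CPM in the other 10 granulosa cell libraries. Blebbistatin replicate 1 also had the fewest detected genes of the granulosa cell libraries, 14538, against 18605 to 24297 in the others. Control replicate 2 of the oocytes had 2467 CPM of granulosa markers, against 61.2 to 595 CPM in the other 11 oocyte libraries.

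A gene was tested in a cell type when it passed a filter on low counts. In granulosa cells 7 of the 8 genes passed, and in oocytes 4 of the 8 did (Loxl1, Plod1, Plod2 and Plod3). A gene was called changed when its p-value from edgeR's quasi-likelihood test, adjusted by Benjamini-Hochberg over all genes tested in that cell type, was under 0.05.

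**Figure D1:**
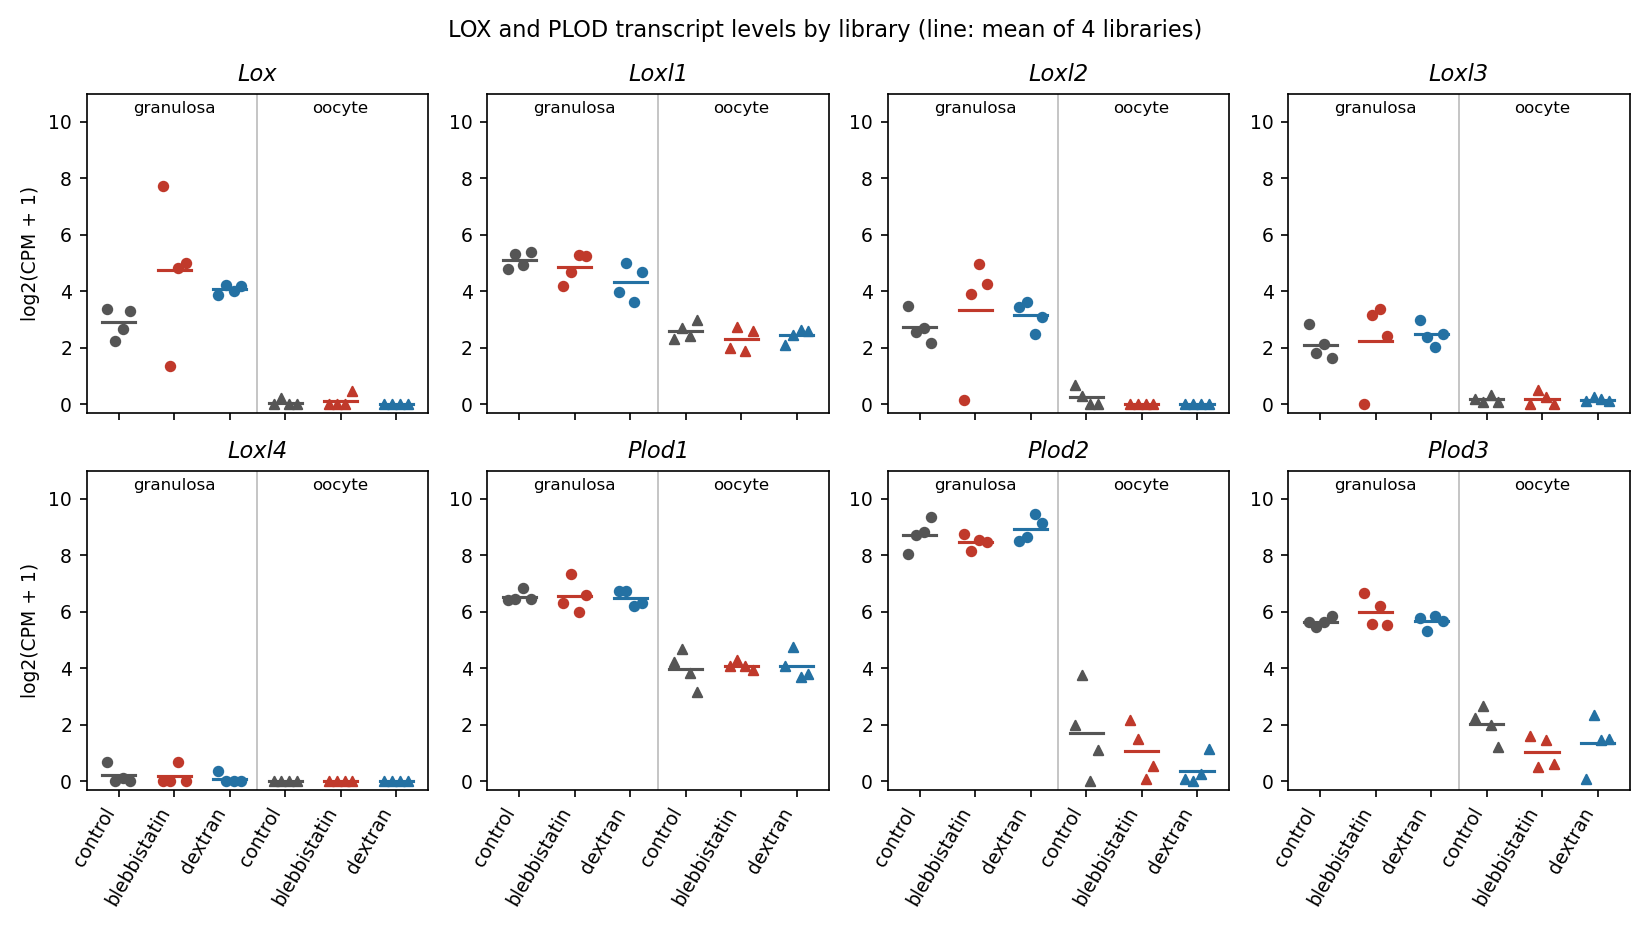
Level of each of the 8 genes in every library, as log2(CPM + 1), by cell type (circles, granulosa cells; triangles, oocytes) and treatment, with a line at the mean of the 4 libraries of a group. Lox in granulosa cells ran from 1.58 to 212 CPM with blebbistatin and from 13.7 to 17.7 CPM with dextran, and the 7 genes other than Loxl4 were lower in the oocyte libraries than in the granulosa cell libraries except for Loxl2 and Loxl3 in blebbistatin replicate 1.

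In granulosa cells Lox, the founding member of the oxidase family, was higher in every dextran library than in any control library, and with blebbistatin it ranged from below to far above control. Its level in control replicates 1 to 4 was 9.20, 3.66, 5.38 and 8.94 CPM. With dextran it was 13.7, 17.7, 15.1 and 17.3 CPM. With blebbistatin it was 212, 1.58, 27.4 and 31.1 CPM. Dextran and control libraries did not overlap. Of the blebbistatin libraries 3 were above every control and dextran library, and replicate 2 was below every one of them. The group means were 6.80 ± 2.72 CPM in control, 15.9 ± 1.89 CPM with dextran and 68.0 ± 96.9 CPM with blebbistatin (SD, n = 4 each). The spread of the blebbistatin libraries was wider than the distance between any of these means.

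Lox was not called in either comparison with control. For blebbistatin the log2 fold change was 3.32 ± 0.98 (SE; 95% interval 1.20 to 5.45), with an unadjusted p of 0.00515 and an adjusted p of 0.253 by edgeR. Of all 15370 genes tested in granulosa cells, 0.00651% were called in this comparison. With DESeq2 the adjusted p of Lox was 0.00914. Without blebbistatin replicate 2, in which Lox was low, the log2 fold change was 3.75 ± 0.66 and the adjusted p 0.0437. Without replicate 1, in which Lox was highest, the change was 1.58 ± 0.66 and the adjusted p 0.376. Without both of these libraries, an alternative chosen after the data were seen, the change was 2.12 ± 0.32 and the adjusted p 0.0409. The estimate was positive in each of these fits, and its call depended on which libraries were kept.

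For dextran the log2 fold change of Lox was 1.23 ± 0.91 (95% interval -0.76 to 3.22, adjusted p 1.00 by edgeR, with 0% of genes called). This fit uses a spread estimated over the 3 granulosa cell groups, which includes the wide blebbistatin group. Fitted on control and dextran libraries alone, the change was again 1.23 with an SE of 0.29, the unadjusted p was 0.00178 and the adjusted p 0.289. Groups that do not overlap, with dextran above control, were found for 2.67% of all genes tested. Between blebbistatin and dextran Lox differed by 2.09 ± 0.93 (adjusted p 0.546), and by 0.35 without blebbistatin replicate 1. The comparisons with control share the same 4 control libraries.

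**Figure D2:**
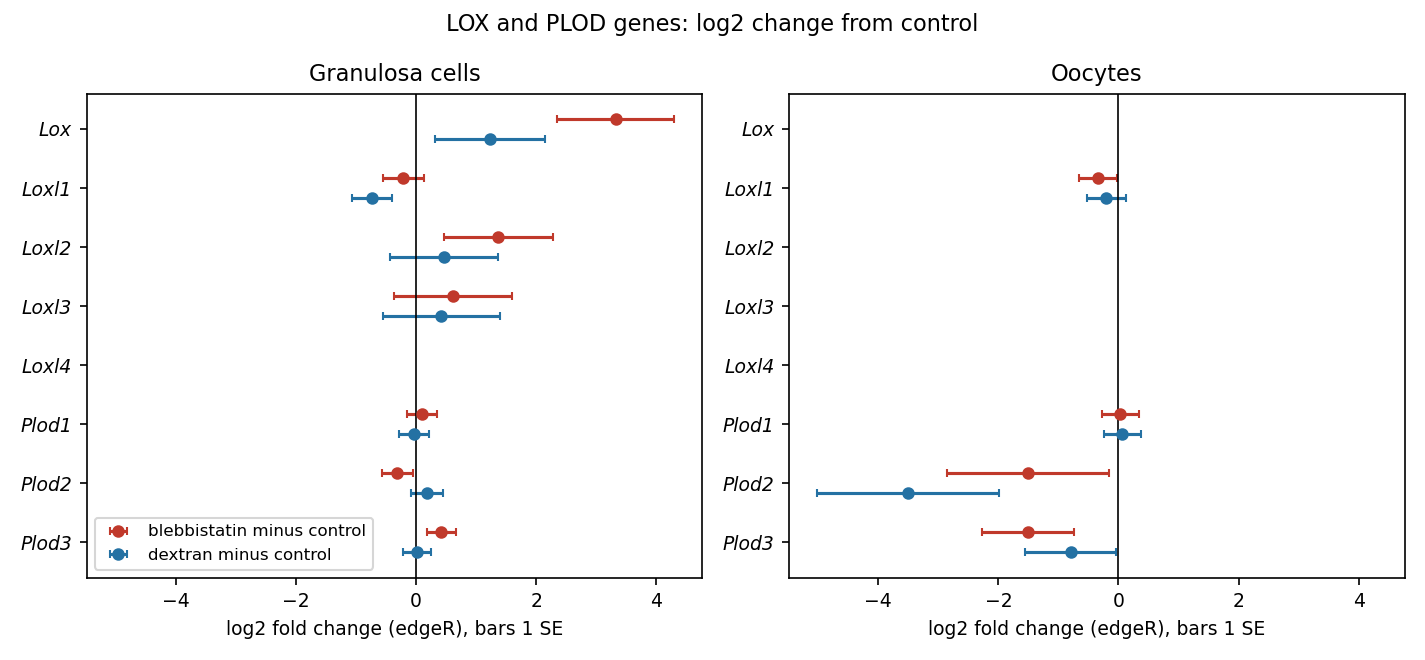
Log2 fold changes of the tested genes from control, fitted with edgeR in granulosa cells (left, 7 genes) and oocytes (right, 4 genes), with bars of 1 SE. Genes without a point did not pass the filter on low counts, and none of the values plotted passed the adjusted threshold of 0.05.

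Markers of stroma, theca and smooth muscle, cell types that lie next to the granulosa layer, moved with blebbistatin. Of 15 such markers 13 had a higher mean with blebbistatin than in control, and 4 were higher in all 4 libraries. Of all genes tested, 45.4% had an estimate above 0 for blebbistatin, and 6.6% did not overlap control in either direction. The summed level of the 15 markers was 418 to 1668 CPM with blebbistatin, 27.1 to 401 CPM in control and 23.0 to 378 CPM with dextran. None of these markers was at 0 in all granulosa cell libraries. Their part in the Lox values was not tested. The 14 granulosa markers summed to 17510 to 22988 CPM with blebbistatin, below the 26629 to 33505 CPM of control without overlap, and to 23471 to 30177 CPM with dextran. Of these 14 markers 2 had a higher mean with blebbistatin than in control, beside the same 45.4% of all genes. The part of the granulosa markers in the values was not tested either. The highest stromal sum, 1668 CPM, and the highest Lox were both in blebbistatin replicate 1, whereas replicate 2 had a sum of 418 CPM beside the lowest Lox, 1.58 CPM. For dextran, 4 of the 15 stromal markers had a higher mean than in control, beside 49.5% of all genes tested with an estimate above 0. Dextran replicates 3 and 4 had sums of 28.0 and 23.0 CPM with Lox at 15.1 and 17.3 CPM, and control replicate 2, with a sum of 27.1 CPM, had Lox at 3.66 CPM. In bulk libraries, fewer cells of a type and less RNA per cell cannot be told apart.

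The mitochondrial share of counts was 3.86% to 9.53% with blebbistatin, 2.60% to 4.52% in control and 3.41% to 4.82% with dextran. Across the 12 granulosa cell libraries, log2(CPM + 1) of Lox had a Pearson r of 0.46 with the mean level of stromal markers, 0.64 with the mitochondrial share and -0.81 with the number of genes detected. These are descriptions over libraries that share groups, and blebbistatin replicate 1 had both the highest Lox and the fewest genes detected. The part of RNA quality in the Lox values was not tested.

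**Figure D3:**
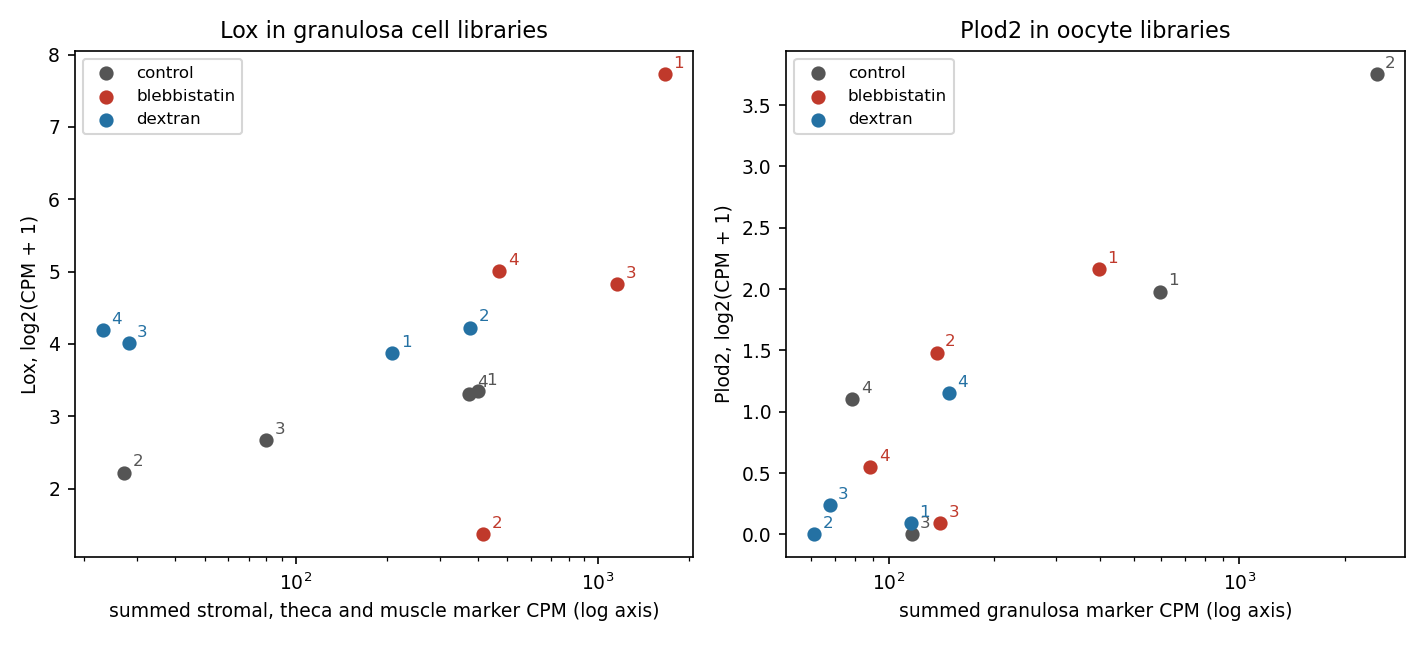
Left, Lox as log2(CPM + 1) against the summed CPM of 15 stromal, theca and muscle markers (log axis) in the 12 granulosa cell libraries, and right, Plod2 against the summed CPM of 14 granulosa markers (log axis) in the 12 oocyte libraries, with replicate numbers beside the points. Dextran replicates 3 and 4, with stromal sums of 28.0 and 23.0 CPM, have Lox above all controls. Granulosa cell control replicate 2, with a sum of 27.1 CPM, has the lowest Lox of the controls. Oocyte control replicate 2 has both the highest Plod2 and the highest granulosa sum.

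Loxl1, the oxidase most closely tied to elastic fibres, was measured in all 24 libraries. In granulosa cells its control level was 26.8, 38.9, 29.1 and 40.7 CPM. With blebbistatin it was 17.2, 24.9, 37.9 and 36.9 CPM, and with dextran 14.7, 30.9, 11.2 and 24.7 CPM. Of the dextran libraries 3 lay below every control library, and the groups overlapped through replicate 2. The mean was 33.9 ± 6.97 CPM in control, 29.2 ± 9.96 CPM with blebbistatin and 20.4 ± 9.07 CPM with dextran (SD, n = 4 each). The log2 fold change was -0.73 ± 0.34 for dextran (95% interval -1.47 to 0.01, unadjusted p 0.0516) and -0.21 ± 0.34 for blebbistatin (95% interval -0.95 to 0.52), and neither was called by edgeR. Loxl1 thus had a negative estimate for dextran where that of Lox was positive, but neither passed the test.

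Loxl2 and Loxl3, oxidases of the branch of the family that carries scavenger receptor domains, varied together. Loxl2 in granulosa cells was 10.2, 4.88, 5.47 and 3.48 CPM in control, 0.11, 14.0, 30.1 and 18.2 CPM with blebbistatin and 9.96, 11.4, 4.52 and 7.47 CPM with dextran. Blebbistatin replicates 2 to 4 were above every control and dextran library, and replicate 1 was the lowest of all. Loxl3 was 6.07, 2.49, 3.39 and 2.10 CPM in control, 0, 7.94, 9.22 and 4.27 CPM with blebbistatin and 6.95, 4.21, 3.06 and 4.62 CPM with dextran, so its 3 groups overlapped. Over the 12 libraries their log2(CPM + 1) had a Pearson r of 0.93 and a Spearman rho of 0.85, a description that includes replicate 1, where both were lowest. Blebbistatin replicate 1 therefore had the highest Lox of the granulosa cell libraries and the lowest Loxl2 and Loxl3, with 3911 estimated counts for Lox, 2 for Loxl2 and 0 for Loxl3.

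Neither gene was called for either treatment. The log2 fold change for blebbistatin was 1.37 ± 0.91 for Loxl2 (95% interval -0.61 to 3.35, adjusted p 0.637 by edgeR). For Loxl3 it was 0.61 ± 0.98 (95% interval -1.53 to 2.74, adjusted p 0.872). For dextran the changes were 0.47 ± 0.90 for Loxl2 and 0.42 ± 0.98 for Loxl3. Leaving out blebbistatin replicate 1 gave 1.80 ± 0.41 for Loxl2 (adjusted p 0.146) and 1.04 ± 0.44 for Loxl3 (adjusted p 0.381), and again neither passed.

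Loxl4, the remaining oxidase of that branch, was at the limit of detection. It had 13 and 2 estimated counts in control replicates 1 and 3 of the granulosa cells, 11 in blebbistatin replicate 3 and 5 in dextran replicate 1, and 0 in the other 8 granulosa cell libraries. All 12 oocyte libraries had 0 counts, which allows a level of up to 0.0158 CPM of the pooled, unscaled oocyte total at a floor of 3 counts. It did not pass the filter, and no comparison was made for it.

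Plod2, the hydroxylase that acts on the short telopeptide ends of collagen and thereby favours stable hydroxylysine cross-links, was 261, 416, 455 and 649 CPM in control granulosa cells. It was 433, 286, 368 and 350 CPM with blebbistatin and 363, 398, 696 and 567 CPM with dextran. The 3 groups overlapped. The lowest mean was that with blebbistatin, 359 ± 60.4 CPM, followed by 445 ± 159.9 CPM in control and 506 ± 155 CPM with dextran (SD, n = 4 each), and neighbours in this order did not differ beyond their spread. The log2 fold change was -0.31 ± 0.26 for blebbistatin (95% interval -0.89 to 0.26) and 0.19 ± 0.26 for dextran (95% interval -0.39 to 0.76), and between blebbistatin and dextran it was -0.50 ± 0.26 (unadjusted p 0.0855, adjusted p 0.623 by edgeR).

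Plod1, which hydroxylates lysines in the collagen triple helix, was 84.3, 86.2, 113 and 86.4 CPM in control granulosa cells. With blebbistatin they were 77.9, 159, 63.2 and 95.8 CPM, and with dextran 105, 106, 72.9 and 78.2 CPM. The log2 fold change was 0.10 ± 0.25 for blebbistatin (95% interval -0.45 to 0.64; -0.21 without blebbistatin replicate 2) and -0.03 ± 0.25 for dextran (95% interval -0.58 to 0.51).

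Plod3, which also adds sugars to hydroxylysine and is needed for type IV collagen of basement membranes, was 48.7, 43.2, 48.8 and 57.0 CPM in control. With blebbistatin it was 100.4, 46.2, 72.0 and 45.6 CPM, and with dextran 53.7, 39.2, 56.3 and 50.1 CPM. Blebbistatin replicates 1 and 3 were above all other granulosa cell libraries, and replicates 2 and 4 lay among the controls. The log2 fold change was 0.42 ± 0.24 for blebbistatin (95% interval -0.10 to 0.93, adjusted p 0.566 by edgeR) and 0.01 ± 0.24 for dextran (95% interval -0.50 to 0.53). Without blebbistatin replicate 1 the change of Plod3 was 0.16 ± 0.18 (adjusted p 0.792), and without replicates 1 and 2 together it was 0.26 ± 0.20. The intervals of Plod1, Plod2 and Plod3 lay within a 2-fold change in either direction for both treatments. Those of Lox, Loxl2 and Loxl3 reached beyond it, as did that of Loxl1 for dextran (-1.47 to 0.01).

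In all, 0 of the 7 tested genes were called by edgeR in granulosa cells for blebbistatin, for dextran or between the 2 treatments. At an unadjusted p under 0.05 there were 1 (Lox), 0 and 1 (Lox), against 10.4%, 3.4% and 8.84% of all genes tested. DESeq2 called 1 (Lox), 0 and 0.

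In oocytes the oxidases other than Loxl1 were nearly absent. Lox had 3 estimated counts in control replicate 2, 6 in blebbistatin replicate 4 and 0 in the other 10 libraries. Loxl2 had 9 and 4 counts in control replicates 1 and 2 and 0 elsewhere. Loxl3 had at most 6.44 counts in any library, and 2 libraries had none. These genes could not be compared between treatments at this depth.

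Loxl1 was the oxidase found in every oocyte library. It was 3.88, 5.46, 4.38 and 6.93 CPM in control, 3.00, 5.59, 2.72 and 5.00 CPM with blebbistatin and 3.30, 4.51, 5.16 and 5.02 CPM with dextran. The groups overlapped, and the log2 fold change was -0.34 ± 0.32 for blebbistatin and -0.20 ± 0.32 for dextran, neither called.

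Plod1 was likewise found in every oocyte library, at 17.9, 24.5, 13.1 and 7.84 CPM in control. It was 15.9, 18.6, 15.9 and 14.2 CPM with blebbistatin and 16.0, 25.7, 11.8 and 12.8 CPM with dextran. Its log2 fold change was 0.03 ± 0.31 for blebbistatin (95% interval -0.63 to 0.69) and 0.07 ± 0.31 for dextran (95% interval -0.60 to 0.73).

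Plod3 in oocytes was 3.75, 5.40, 2.96 and 1.33 CPM in control, 2.00, 0.41, 1.75 and 0.53 CPM with blebbistatin and 0.07, 4.12, 1.76 and 1.79 CPM with dextran. Control replicates 1 to 3 were above every blebbistatin library, and the groups overlapped through control replicate 4. The log2 fold change was -1.51 ± 0.77 for blebbistatin (unadjusted p 0.0700, adjusted p 1.00 by edgeR) and -0.80 ± 0.75 for dextran. Without control replicate 2 these were -1.18 ± 0.82 and -0.46 ± 0.82.

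Plod2 in oocytes was 2.94, 12.5, 0 and 1.15 CPM in control. It was 3.47, 1.79, 0.06 and 0.46 CPM with blebbistatin and 0.07, 0, 0.18 and 1.22 CPM with dextran. Control replicate 2 held 236 of the 299.6 estimated counts of its group. For dextran the log2 fold change was -3.51 ± 1.51 (unadjusted p 0.0384, adjusted p 0.901 by edgeR), and it was -1.89 ± 1.37 without that control library. For blebbistatin it was -1.51 ± 1.35, and 0.09 without that control library. In oocytes 0 of the 4 tested genes were called for either treatment, as was the case for 0% of the 16749 genes tested. At an unadjusted p under 0.05 there was 1 of 4 for dextran (Plod2) and 0 of 4 for blebbistatin, against 5.31% and 4.1% of all genes tested, and DESeq2 called 0 of 4 for each. Between blebbistatin and dextran 0 of 4 were called either, with 0 at an unadjusted p under 0.05, against 4.07% of all genes tested. The widest of these estimates was that of Plod2, 1.99 ± 1.48.

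Control replicate 2 of the oocytes was also the library with the most granulosa marker RNA. It was the highest of the 12 oocyte libraries for 12 of the 14 granulosa markers. The summed level of those markers was 78.7 to 2467 CPM in control, 88.6 to 397 CPM with blebbistatin and 61.2 to 149 CPM with dextran, and no marker of the list was at 0 in all oocyte libraries. Over the 12 oocyte libraries log2(CPM + 1) of Plod2 had a Pearson r of 0.87 with the mean granulosa marker level, Plod3 0.54, Plod1 0.46 and Loxl1 -0.14, as a description. Plod2 in control replicate 2 was 0.848% of the level of Inha, a hormone subunit gene of granulosa cells, in the same library, and in granulosa cell libraries this share was 1.62% to 5.28%. Across the oocyte libraries it ran from 0% (control replicate 3 and dextran replicate 2) to 23.1% (dextran replicate 3, with Inha at 0.79 CPM). The part of granulosa RNA in the oocyte values was not tested.

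Control oocytes were then compared with control granulosa cells on a scale shared by all 24 libraries. Loxl1, Plod1, Plod2 and Plod3, the 4 genes that passed the filter in each cell type, were called lower in oocytes, and their 4 and 4 libraries did not overlap. Of all 20601 genes tested 77.3% were called, 32.9% lower and 44.4% higher in oocytes, and 32.6% were lower without overlap, so a call alone sets no gene apart. The scaling moves every gene's difference by 0.35 on the log2 scale relative to unscaled totals, which is smaller than each difference reported here. Lox, Loxl2 and Loxl3 passed the joint filter only through their granulosa cell counts and thus had to differ, so only their counts and levels are given, with no test.

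Among the oxidases, the log2 difference of oocytes from granulosa cells was -2.37 ± 0.34 for Loxl1 (adjusted p 2.89e-06 by edgeR). For Lox the pooled control counts were 543 in granulosa cells against 3 in oocytes, a ratio of levels of 147 with an exact 95% counting interval of 50.2 to 717, which covers counting error only. For Loxl2 they were 503 against 13, a ratio of 31.5 (18.3 to 59.6). For Loxl3 they were 293 against 8, a ratio of 29.8 (14.9 to 69.8). Among the hydroxylases it was -6.28 ± 0.99 for Plod2 (adjusted p 8.51e-06), -3.48 ± 0.63 for Plod3 (adjusted p 4.47e-05) and -2.16 ± 0.33 for Plod1 (adjusted p 7.40e-06). Of the 4 tested differences those of Loxl1 and Plod1 were the smallest and that of Plod2 was the widest.

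The mean oocyte level was also taken as a percent of the mean granulosa cell level over all 12 and 12 libraries. This share was 0.193% for Lox, 0.606% for Plod2, 0.912% for Loxl2, 3.45% for Loxl3, 4.90% for Plod3, 20.1% for Loxl1 and 21.2% for Plod1. For 13 granulosa markers the share was 1.18% to 14.6% with a median of 2.27%. The 14th marker, aromatase (Cyp19a1), was left out of that range after its values were seen, because its oocyte level was 915% of its granulosa cell level. Without oocyte control replicate 2 the marker range was 0.449% to 13.7% with a median of 0.919%, and the share was 0.143% for Lox, 0.294% for Plod2, 19.4% for Loxl1 and 19.8% for Plod1. Loxl1 and Plod1 were above the range of the 13 markers with and without that library, and Lox and Plod2 were below it with and without it. The granulosa cell mean of Lox includes blebbistatin replicate 1, at 212 CPM. Over control libraries alone the share was 0.824% for Lox, 1.28% for Plod2, 4.53% for Loxl2, 4.41% for Loxl3 and 8.95% for Plod3. For Loxl1 it was then 19.3%, for Plod1 22.4%, and for the 13 markers 1.67% (Inhba) to 15.3% (Nr5a2).

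**Figure D4:**
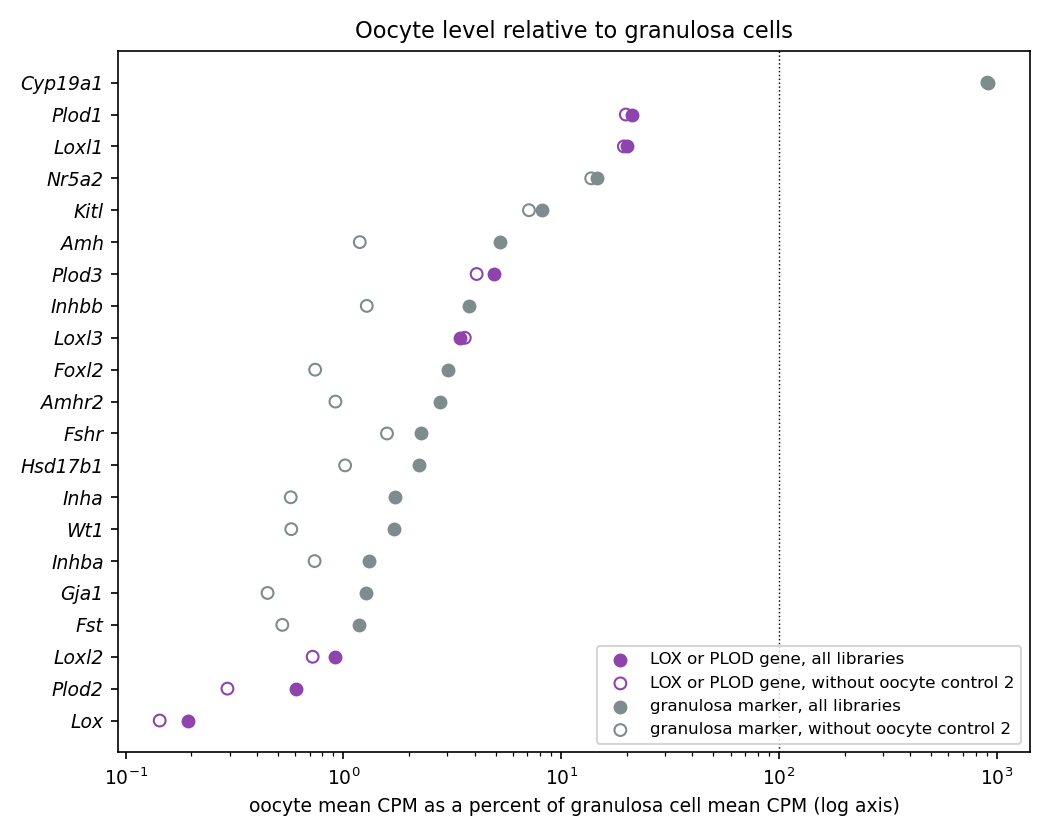
Mean oocyte CPM as a percent of mean granulosa cell CPM (log axis, joint scale, 12 libraries of each cell type) for 7 LOX and PLOD genes and 14 granulosa markers, with open symbols for the value without oocyte control replicate 2. Loxl1 and Plod1 lie near 20.1% and 21.2%, above every marker but Cyp19a1, and Lox and Plod2 lie at the bottom. Loxl4, with 0 counts in oocytes, is not drawn.

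Whether a treatment acted differently in the 2 cell types was tested by an interaction term in a joint model of the 24 libraries. For blebbistatin 0 of 7 genes were called by edgeR, against 0.0485% of 20601 genes, and for dextran 0 of 7, against 0%. Lox, Loxl2 and Loxl3 entered this model only through their granulosa cell counts, and Loxl2 had 0 counts in all 8 treated oocyte libraries. Their interaction estimates are therefore not read as sizes. Of the other 4 genes, the interaction of Plod3 with blebbistatin was -2.03 ± 0.84 (unadjusted p 0.025, adjusted p 0.378 by edgeR). It was -1.40 ± 0.82 (unadjusted p 0.106) without oocyte control replicate 2 and -1.76 ± 0.83 without granulosa cell blebbistatin replicate 1. The interaction of Plod2 with dextran was -3.93 ± 1.37 (unadjusted p 0.00915, adjusted p 0.359), and without oocyte control replicate 2 it was -2.05 ± 1.19 (unadjusted p 0.0993). An unadjusted p under 0.05 was found for 11.3% of all genes for blebbistatin and 9.28% for dextran, and nothing is read from these 2 genes against it. Without oocyte control replicate 2 the blebbistatin interactions of Loxl1, Plod1 and Plod2 changed sign, to 0.06, 0.40 and 0.62.

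Other genes of the pathway were followed in 3 lists. The first holds 17 genes that hydroxylate, fold and secrete procollagen. In granulosa cells with blebbistatin 0 of 17 were called by edgeR, with a median log2 fold change of -0.10 against -0.05 for all genes tested. The smallest p was that of P3h2, a prolyl 3-hydroxylase, whose mean was 22.7 ± 6.54 CPM with blebbistatin and 7.92 ± 2.73 CPM in control (SD, n = 4 each). Its log2 fold change was 1.52 ± 0.36, and it did not pass (adjusted p 0.184). At an unadjusted p under 0.05 there were 8 of 17, 3 above and 5 below control, beside 10.4% of all genes tested. DESeq2 called 2 of 17, P4ha3 and P3h2, both higher, and 415 genes over the whole table. Without blebbistatin replicate 2 edgeR called 2 of 17, Ppib and Fkbp10, both lower, and 115 genes over the whole table. For dextran 0 of 17 were called, with a median of -0.12, and the smallest p was again that of P3h2 (0.86 ± 0.36), which did not pass.

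The second list holds 12 genes that trim propeptides or cross-link matrix in other ways. Of 6 tested in granulosa cells 0 were called for either treatment, with a median of 0.33 for blebbistatin and 0.00 for dextran. Pcolce, an enhancer of procollagen C-proteinase, had the smallest p for blebbistatin, at 103 ± 29.6 CPM against 47.6 ± 4.57 CPM in control and a log2 fold change of 1.11 ± 0.27. It did not pass (adjusted p 0.190 by edgeR), and without blebbistatin replicates 1 and 2 its change was 0.91 ± 0.31. At an unadjusted p under 0.05 there was 1 of 6, beside the same 10.4%. DESeq2 called 1 of 6 for blebbistatin, Pcolce, as higher, among its 415 calls over all genes. Adamts2, which removes the N-propeptide, had the smallest p for dextran (0.41 ± 0.18) and did not pass.

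The third list holds 28 substrates and fibril partners, that is collagens, elastin, fibrillins and small proteoglycans. With blebbistatin 0 of 24 tested were called by edgeR, the median log2 fold change was 1.34, and 19 of 24 estimates were above 0. For 11 of the 24 the blebbistatin and control libraries did not overlap, against 6.6% of all genes tested. Col4a4, a chain of basement membrane collagen, had the smallest p, with 61.1 ± 52.7 CPM against 5.46 ± 2.93 CPM and a log2 fold change of 3.49 ± 0.61, and did not pass (adjusted p 0.102). At an unadjusted p under 0.05 there were 9 of 24, all higher, beside 10.4% of all genes tested. DESeq2 called 7 of the list, all higher: Col4a1, Col4a2, Col4a3, Col4a4, Fbn1, Fbln5 and Bgn, among its 415 calls over all genes. Without blebbistatin replicates 1 and 2 edgeR called 1, Col4a4, with a change of 3.00 ± 0.45 (adjusted p 0.0409). Leaving out replicate 2 alone also gave 1 call, Col4a4, at 3.80 ± 0.56 (adjusted p 0.0437 by edgeR). Leaving out replicate 1 alone gave 2.72 ± 0.45 for Col4a4 (adjusted p 0.0814 by edgeR), which did not pass. Of the 28 genes 6 are also in the list of stromal markers, whose sums with blebbistatin are given above. For dextran 0 of 24 were called, with a median of -0.09, and Col4a3 had the smallest p (1.35 ± 0.59) without passing.

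In oocytes 0 of 14, 0 of 6 and 0 of 11 tested genes of the 3 lists were called for either treatment. The median log2 fold changes were -0.06, -0.04 and -0.19 for blebbistatin and -0.28, 0.15 and 0.09 for dextran. The smallest p for blebbistatin was that of Serpinh1, the collagen chaperone HSP47 (-3.03 ± 1.57), of Adamts2 (-1.59 ± 0.71) and of Mfap2, a microfibril protein (-0.13 ± 0.11), none of which passed. For dextran it was that of Serpinh1 (-5.59 ± 1.84), Adamts2 (-1.82 ± 0.72) and Col6a3, a collagen VI chain (0.42 ± 0.30), none of which passed. Serpinh1 in control oocytes was 55.1 ± 85.7 CPM, so its spread exceeded its mean. Without control replicate 2, the library with the most granulosa marker RNA, the change of Serpinh1 was -0.96 ± 1.41 for blebbistatin and -3.50 ± 1.56 for dextran. That of Adamts2 was then -0.27 ± 0.58 for blebbistatin and -0.50 ± 0.58 for dextran.

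Between the cell types 15 of 17 genes of the first list were called lower in control oocytes and 0 higher, beside 32.9% lower and 44.4% higher of all genes tested. The counts of all 3 lists include genes that passed the joint filter through 1 cell type only and thus had to differ. These counts are therefore descriptions. In the first list the median log2 difference was -2.99, against 0.41 for all genes tested. P4hb, the shared subunit of prolyl 4-hydroxylases, was 449.8 ± 118 CPM in oocytes and 1543 ± 131 CPM in granulosa cells on the joint scale. Serpinh1 was 69.5 ± 109.7 CPM in oocytes and 1567 ± 208 CPM in granulosa cells. P4ha1 and Mia3 were not called. Of the 10 tested genes of the second list 5 were higher in oocytes (Tll1, Adamts3, Pcolce2, Tgm1 and Qsox1) and 5 lower (Bmp1, Adamts2, Pcolce, Tgm2 and Pxdn). In the fits of a single cell type only 6 genes of this list were tested in granulosa cells and 6 in oocytes. Adamts3 and Adamts2, related procollagen N-proteinases, lay on opposite sides: Adamts3 was 20.5 ± 3.93 CPM in oocytes and 0.12 ± 0.09 CPM in granulosa cells, and Adamts2 was 7.57 ± 9.69 CPM and 248 ± 44.1 CPM. Tll1 and Bmp1, related procollagen C-proteinases, did so as well, with Tll1 at 11.4 ± 5.36 CPM in oocytes and 0.05 ± 0.10 CPM in granulosa cells, and Bmp1 at 0.40 ± 0.61 and 12.8 ± 2.32 CPM. Of the 26 tested genes of the third list 18 were lower in oocytes, and 1, Col4a3, was higher, at 33.4 ± 12.6 CPM against 3.13 ± 1.02 CPM.

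The genes whose log2(CPM + 1) followed each member most closely over the 12 libraries of a cell type were taken by Pearson r, for members with a mean of at least 5 CPM. In granulosa cells they were Polg (0.97), Cep120 (0.93) and Mir181a-1hg (0.91) for Lox. For Loxl1 they were Sox12 (0.88), Siah2 (0.86) and Alms1-ps2 (0.85). For Loxl2 they were Stom (0.98), Loxl3 (0.93) and Bet1l (0.93). For Plod1 they were Elovl4 (0.87), Cd52 (0.84) and Tradd (0.83). For Plod2 they were Adcy9 (0.92), Ptprd (0.92) and Parm1 (0.91), and for Plod3 Nos1ap (0.94), Fbxl14 (0.94) and Wars2 (0.94). In oocytes only Plod1 reached that mean, with Pfkp (0.94), Cyp1b1 (0.90) and Samm50 (0.87). These are the highest among all genes tested in a cell type, over 12 libraries that share groups, and are descriptions. For Lox the highest library, at 212 CPM, was followed by one at 31.1 CPM, and for Loxl2 the lowest, at 0.11 CPM, was followed by one at 3.48 CPM. Plod3 was highest in blebbistatin replicate 1, at 100.4 CPM, followed by a library at 72.0 CPM. Plod1 was highest in blebbistatin replicate 2, at 159 CPM, followed by a library at 113 CPM. Blebbistatin replicate 2 had 859 CPM of immune markers, whose part in these correlations was not tested. Cd52 had a mean of 0.85 CPM.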

How the data were processed

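Per the labels, the authors deposited salmon's estimated counts, summed by gene, as a table for each cell type. The submitters' processing notes name GRCm39. Aligner, annotation release, versions and strandedness were not stated there, so reads of an overlapping antisense gene cannot be told apart. No coordinates are given, because the reference used was of a different build. There were 0 unused sample columns.

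Estimated counts were rounded, filtered with filterByExpr and scaled with TMM. Each cell type was fitted over its 12 libraries, and the comparison of cell types and the interactions over all 24, with edgeR 4.0.16 (robust glmQLFit, glmQLFTest) in R 4.3.3. Adjustment was by Benjamini-Hochberg across all genes tested (15370, 16749 and 20601 genes), with a threshold of 0.05. SE is the log2 fold change over the root of F. Depth was 14244100 to 22431000 counts per library. The labels name no molecular identifiers, so reads are not taken as independent molecules, and intervals on counts and floors of 3 counts cover counting error only. Replicates of a group differed by more than sampling noise, and none was counted as a duplicate. The steps were tested on simulated data.

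The 8 genes, the 3 pathway lists and the marker lists were chosen with earlier results of these data known. Named by rule were all 8 genes, the pathway genes that passed the threshold or, where none did, the one of smallest p per list and comparison with control, and the 3 genes of highest Pearson r with each member of at least 5 CPM. Genes called by alternatives were named after their values were seen. Alternatives were DESeq2 1.42.0, its size factors in edgeR, no filter, a replicate block, only the groups compared, and each library left out in turn.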

Additional observations from a re-analysis of the deposited data

Results flagged for a closer look

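Of the 42 sets of 4 libraries in which a gene had any spread, 8 held a library far from the others by Dixon's ratio at its critical value. Chance gives about 1 in 20 for sets of continuous values, but in 4 of these 8 only 1 library had counts, so the ratio is 1 by construction and the number of sets is not comparable with that rate. Lox in granulosa cell blebbistatin replicate 1 stood at 212 CPM, above 1.58, 27.4 and 31.1 CPM in the other replicates. Plod1 in granulosa cell control replicate 3 was 113 CPM, against 84.3 to 86.4 CPM in the others. Plod2 in oocyte dextran replicate 4 was 1.22 CPM, from 17 estimated counts, above at most 0.18 CPM in the others. The remaining 5 sets are of genes near 0. They are Lox in oocyte blebbistatin replicate 4 at 0.395 CPM, Lox in oocyte control replicate 2 at 0.159 CPM, and Loxl4 in granulosa cells at 0.589 CPM (blebbistatin replicate 3), 0.607 CPM (control replicate 1) and 0.274 CPM (dextran replicate 1).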

How the results depend on the processing

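The number of the 8 genes called stayed at 0 in every comparison within a cell type and in both interactions under all alternatives, except blebbistatin against control in granulosa cells, where Lox was called and the count was 1 with DESeq2, without blebbistatin replicate 2, and without its replicates 1 and 2 together (the range with 1 library left out was 0 to 1). The calls of Loxl1, Plod1, Plod2 and Plod3 between cell types held under all alternatives run. Counts over all genes moved more. With DESeq2 they were 415 for blebbistatin and 44 for dextran in granulosa cells, 304 between these treatments, 19 for blebbistatin and 3 for dextran in oocytes, and 373 and 240 for the interactions of blebbistatin and dextran, against 1, 0, 0, 0, 0, 10 and 0 with edgeR. Without the filter they were 23, 4 and 1 in granulosa cells and 4 for blebbistatin in oocytes. With only the groups compared they were 0 for blebbistatin and 1 for dextran in granulosa cells. Without blebbistatin replicates 1 and 2 they were 26 against control and 12 against dextran. With 1 library left out they ranged from 0 to 115 (the highest without granulosa cell blebbistatin replicate 2) for blebbistatin in granulosa cells, 0 to 3 between treatments, 2 to 103 for the blebbistatin interaction (the highest without the same library) and 0 to 91 for the dextran interaction (the highest without oocyte control replicate 4). The cause was not tested.

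Replicate numbers are shared between groups, but the numbers were not taken to pair libraries, because not every pair of the same number passed a correlation of deviations of 0.1. It passed in 4 of 12 such pairs in granulosa cells, 4 of 12 in oocytes and 0 of 12 across cell types, against 2 of 36, 6 of 36 and 0 of 36 pairs of different numbers. This rule cannot show that libraries of the same number were unrelated, so fits with a replicate block are given beside the main ones. With the replicate block 0 of the 8 genes were called within cell types, 0 genes were called for blebbistatin in granulosa cells and 0 for its interaction. Under this block the estimates that changed sign were Plod3 for dextran in granulosa cells (-0.0070), Plod1 between treatments in oocytes (0.037) and Plod1 in the interactions of blebbistatin (0.050) and dextran (0.061).

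No estimate that changed sign was called. Without blebbistatin replicates 1 and 2 Loxl1 (0.15) and Plod1 (-0.21) against control and Plod1 (-0.18) against dextran did so, and with DESeq2 size factors and with DESeq2 Plod1 in the dextran interaction (0.13 each). With 1 library left out the ranges that crossed 0 were as follows. In granulosa cells Plod1 ran from -0.21 to 0.26 for blebbistatin, from -0.12 to 0.078 for dextran and from -0.18 to 0.29 between treatments. Plod2 ran from -0.010 to 0.42 and Plod3 from -0.053 to 0.11 for dextran, and Loxl3 from -0.21 to 0.62 between treatments. In oocytes Plod1 ran from -0.18 to 0.32 for blebbistatin, from -0.21 to 0.36 for dextran and from -0.16 to 0.26 between treatments. Plod2 ran from -2.44 to 0.092 for blebbistatin, and Loxl1 from -0.33 to 0.012 between treatments. In the blebbistatin interaction Loxl1 ran from -0.40 to 0.14, Plod1 from -0.44 to 0.40 and Plod2 from -2.37 to 0.62. In the dextran interaction Plod1 ran from -0.31 to 0.45. In the blebbistatin interaction Lox also ran from -6.36 to 0.98 and Loxl3 from -1.52 to 0.12. Lox and Loxl3 entered that model only through their granulosa cell counts, so their ranges are not read as sizes of a treatment difference. Depth limits Lox, Loxl2, Loxl3 and Loxl4 in oocytes, where counts were at most 9 in any library.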
